A study of Danio rerio with 4 samples.

Results

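R-spondins are secreted proteins that raise a cell's sensitivity to Wnt signals. They bind the receptors Lgr4, Lgr5 and Lgr6 and the membrane ubiquitin ligases Znrf3 and Rnf43, which otherwise remove the Frizzled Wnt receptors from the cell surface, so that R-spondin binding keeps Frizzled in place. In zebrafish embryos, rspo1 is needed for vessel sprouting through Wnt signalling and Vegfc, and in mice Rspo3 acts in the endothelium. The family was defined by 9 gene symbols, namely rspo1, rspo2, rspo3, rspo4, lgr4, lgr5, lgr6, znrf3 and rnf43, and 5 of these symbols were found among the 20306 genes of the table. These were the ligand genes rspo1, rspo2 and rspo3, the receptor gene lgr4 and the ligase gene znrf3. The symbols rspo4, lgr5, lgr6 and rnf43 matched 0 rows and were not analysed here. The identifier that the gene name table pairs with lgr6, ENSDARG00000098308, stands in the file under the symbol CR936540.1, with normalized counts of 26 and 1 in Regenerating, against 5 and 4 in Non-Regenerating. That row was not counted as a member, and its values were too low to be tested.

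The study compared coronary endothelial cells, which line the vessels of the heart muscle, from wild-type zebrafish whose ventricles were cryoinjured and taken 7 days later. All cells carried a red reporter driven by a flt1 promoter fragment (-0.8flt1:RFP) and were split by sorting into cells with and without yellow signal from a second reporter, for the chemokine receptor gene cxcr4a (cxcr4a:YFP). The file heads its columns Regenerating, taken here as the YFP+ gate (2 libraries), and Non-Regenerating, taken as the YFP- gate (2 libraries). The labels do not say which heading belongs to which gate, and this match rests on knowledge of the reporter. No uninjured sample was compared, and both groups share the genotype, the red reporter and the injury. The age of the fish is not given in the labels, nor do they say whether each replicate is a separate set of fish. The SDs given are thus those between libraries and may be technical only. The SEs come from the limma fit, which draws the variance of each gene towards that of other genes of like level. They rest on 3.08 prior beside 2 residual degrees of freedom. An SE can thus be smaller or larger than the gene's own libraries alone would give.

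Full-length cDNA was amplified from about 5 ng of total RNA per library, and the values are counts that the authors scaled per library and rounded. They summed to between 10481747 and 10761712 per library, from an estimated 9741978 to 11583307 reads. The cxcr4a transcript read 2285 and 2242 in Regenerating, against 585 and 590 in Non-Regenerating, and flt1, a gene for a VEGF receptor, read 5496 and 5925 in Regenerating, against 6595 and 6649 in Non-Regenerating. All 10 endothelial markers were found, and their summed values were 58812 and 64880 in Regenerating, against 73565 and 74396 in Non-Regenerating. Their log2 differences, Regenerating minus Non-Regenerating, ran from -1.19 to 0.01, with a median of -0.14 and 1 above 0. The lowest was that of vwf, which read 4126 and 5988 in Regenerating, against 13350 and 9620 in Non-Regenerating. Markers of other heart and blood cell types were present in every library and are given beside the results. In these sorted bulk samples, fewer cells of a type and less RNA per cell cannot be told apart.

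The family was proposed with its values in view, so the comparison of its members between the groups is a description and carries no test. The ligand gene rspo2 differed most, with both Regenerating libraries far below both Non-Regenerating libraries. The ligand gene rspo3 lay the other way by a small margin, and rspo1, lgr4 and znrf3 had overlapping groups. All 5 members passed the filter on low values, which asked for a normalized count of 10 or more in 2 or more libraries. In the limma fit across all genes 0 of the 5 members were called at an adjusted p under 0.05, beside 0.00591% of the 16928 genes tested. At an unadjusted p under 0.05 there was 1, rspo2, beside 12.8% of all tested genes, and since the members were chosen on this comparison nothing is read from these counts. The groups did not overlap for 1 member that was lower in Regenerating and for 1 that was higher, while the groups did not overlap for 43.2% of all tested genes (21.5% lower and 21.8% higher).

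**Figure D1:**
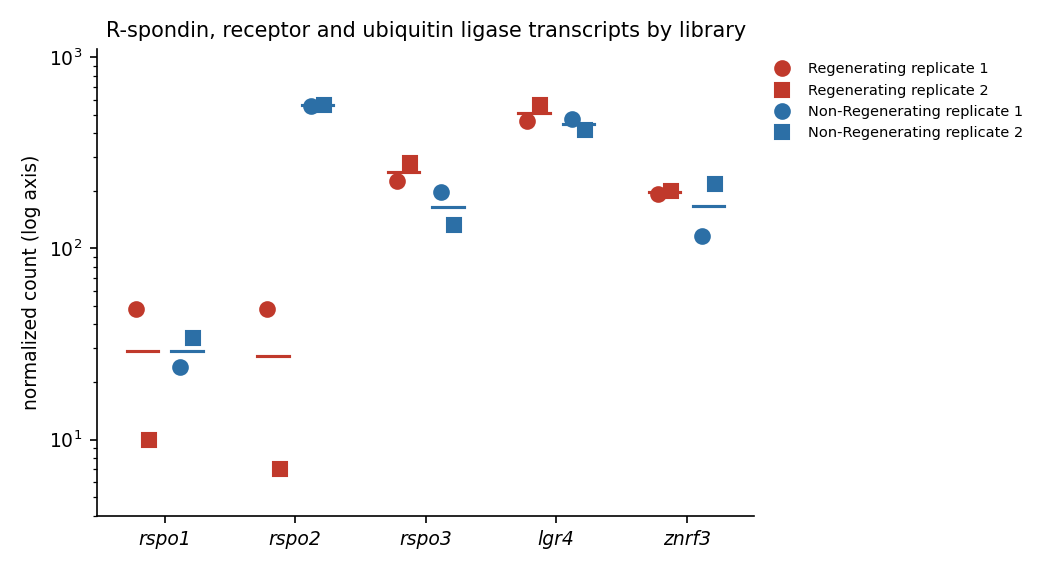
Normalized counts (log axis) of the 5 members in each library, with Regenerating in red at the left of each gene and Non-Regenerating in blue at the right. Circles are replicate 1, squares are replicate 2, and bars are the means of 2 libraries. The rspo2 points of Regenerating, 48 and 7, lie far below those of Non-Regenerating, 555 and 563.

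Among the ligands, rspo2 (ENSDARG00000079570, chromosome 16, 38453876 to 38553721, minus strand, danRer11) encodes R-spondin-2, which in mice is needed for limb and lung development. It read 48 and 7 normalized counts in the Regenerating libraries, against 555 and 563 in the Non-Regenerating ones. Both Regenerating libraries were low and differed from each other 6.86-fold, the Non-Regenerating libraries were nearly equal, and the groups stood far apart, with the lowest Non-Regenerating value 11.6 times the highest Regenerating value. The means were 27.5 ± 29.0 in Regenerating, against 559 ± 5.66 in Non-Regenerating (± SD, n = 2 libraries each). On the log2(value + 1) scale the difference, Regenerating minus Non-Regenerating, was -4.82 (SE 0.874), which corresponds to 28.3-fold lower, and the ratio of the means was 20.3-fold. The exact 95% Poisson interval of counting error ran from 35.7 to 62.8 for the value of 48 in Regenerating replicate 1 and from 2.80 to 14.3 for the value of 7 in Regenerating replicate 2. The Regenerating libraries thus differed from each other by more than counting error, which is all that such intervals cover. The size of the difference depended on which of them was kept, since leaving out Regenerating replicate 1 gave -6.13 and leaving out replicate 2 gave -3.51. Counting rspo2 itself, 9 of the 16928 tested genes (0.0532%) had a log2 difference as low or lower. A difference as large in either direction was found in 0.307% of tested genes.

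The ligand gene rspo3 (ENSDARG00000070081, chromosome 16, 40301056 to 40339027, plus strand) read 226 and 278 in Regenerating, against 196 and 132 in Non-Regenerating. Both Regenerating values were above both Non-Regenerating values, but the gap between the nearest libraries, 226 and 196, was narrower than the distance between the replicates of either group. Means were 252 ± 36.8 in Regenerating, against 164 ± 45.3 in Non-Regenerating (± SD, n = 2 libraries each). The log2 difference was 0.64 (SE 0.313), or 1.55-fold. Leaving out 1 library at a time gave 0.35 to 0.92, the lowest when Non-Regenerating lost replicate 2 and the highest when it lost replicate 1. A difference as large in either direction was found in 25% of tested genes.

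The ligand gene rspo1 (ENSDARG00000104340, chromosome 16, 33772902 to 33817828, minus strand) was read at low counts in all libraries, at 48 and 10 in Regenerating, against 24 and 34 in Non-Regenerating. The Regenerating libraries lay on either side of both Non-Regenerating libraries. The group means were the same, 29.0 ± 26.9 in Regenerating, against 29.0 ± 7.07 in Non-Regenerating (± SD, n = 2 libraries each). The log2 difference was -0.35 (SE 0.843), and its sign depended on 1 library, since leaving out Regenerating replicate 1 gave -1.43 and leaving out replicate 2 gave 0.73. Regenerating replicate 1 was the higher of the Regenerating libraries for rspo1, 4.80-fold, as it was for rspo2. For rspo3 the order of these libraries was the other way.

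Proportions of the ligand transcripts that include rspo2 restate its difference between the groups. For each rspo3 count there were 0.212 and 0.0252 rspo2 counts in the Regenerating libraries, against 2.83 and 4.27 in the Non-Regenerating ones. The ratio of rspo1 to rspo3 was 0.212 and 0.0360 in Regenerating, against 0.122 and 0.258 in Non-Regenerating, with overlapping groups. The summed counts of the 3 ligands were 322 and 295 in Regenerating, against 775 and 729 in Non-Regenerating, and rspo2 made up 14.9% and 2.37% of that sum in Regenerating and 71.6% and 77.2% in Non-Regenerating. Transcript lengths were not used here, so these ratios are of counts, compared between libraries, and do not rank the ligand genes against each other.

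The receptor gene and the ligase gene had overlapping groups. The receptor gene lgr4 (ENSDARG00000060542, chromosome 7, 32369026 to 32460223, plus strand) read 462 and 559 in Regenerating, against 475 and 417 in Non-Regenerating. The libraries of the groups interleaved, with means of 510 ± 68.6 in Regenerating, against 446 ± 41.0 in Non-Regenerating (± SD, n = 2 libraries each). Its log2 difference was 0.19 (SE 0.208), and 0.05 to 0.33 when 1 library was left out. The ligase gene znrf3 (ENSDARG00000062573, chromosome 5, 15992655 to 16126906, plus strand) encodes the enzyme that marks Frizzled for removal, and is itself switched on by Wnt signalling in mammalian cells. It read 192 and 200 in Regenerating, against 116 and 217 in Non-Regenerating. The spread lay in Non-Regenerating, and both Regenerating values fell between the Non-Regenerating ones. Means were 196 ± 5.66 in Regenerating, against 166 ± 71.4 in Non-Regenerating (± SD, n = 2 libraries each), and the log2 difference was 0.30 (SE 0.378). Without replicate 1 of Non-Regenerating it was -0.15, and without replicate 2 of that group 0.75, so its sign rested on 1 library. Set against the receptor, there were 0.104 and 0.0125 rspo2 counts per lgr4 count in Regenerating and 1.17 and 1.35 in Non-Regenerating, while for rspo3 the ratio was 0.489 and 0.497 in Regenerating, against 0.413 and 0.317 in Non-Regenerating.

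**Figure D2:**
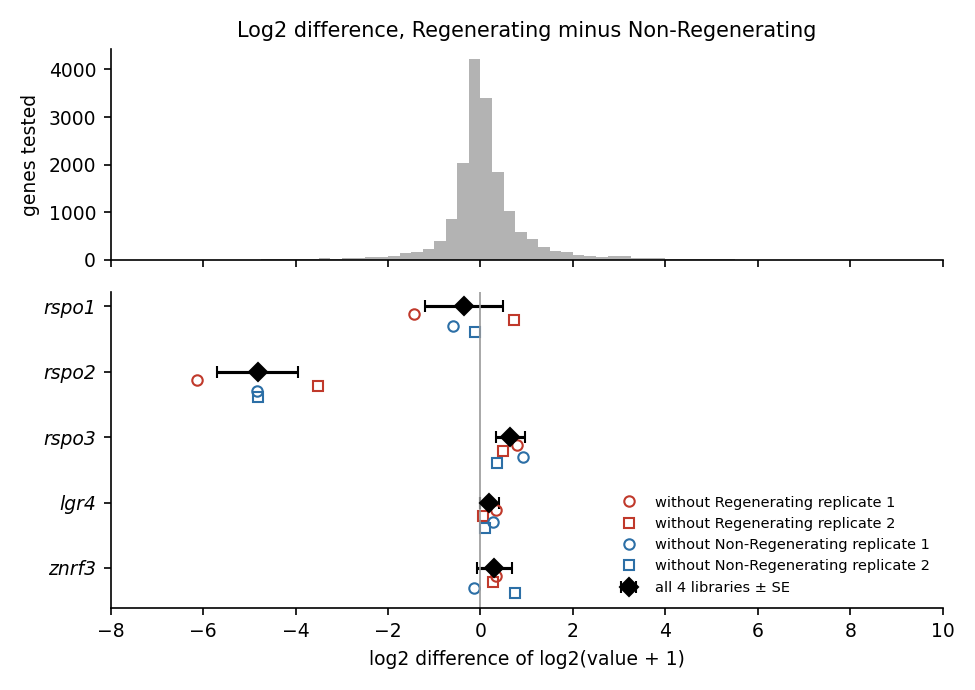
Log2 difference, Regenerating minus Non-Regenerating. The upper panel counts the 16928 tested genes in bins of log2 difference, and the lower panel gives each member with all 4 libraries (diamond ± SE) and with 1 library left out (open symbols). The rspo2 diamond at -4.82 lies outside the range of -1.68 to 2.49 that holds the middle 95% of all tested genes, and the other 4 members lie inside it.

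All 3 ligand genes lie on chromosome 16, in the order rspo1, rspo2 and rspo3. The distances are 4.64 Mb from rspo1 to rspo2 and 1.75 Mb from rspo2 to rspo3, with 64 and 20 genes of the table between them. The neighbours of rspo2 did not share its difference. Within 200000 bases of it lay 9 genes, with log2 differences from -0.14 to 2.29. The nearest, 3115 bases away on the same strand, was eif3ea, which encodes a subunit of a translation initiation factor. It read 1545 and 1359 in Regenerating, against 1675 and 1515 in Non-Regenerating, with overlapping groups. No gene of the table overlapped the span of any of the 5 members. Over chromosome 16 as a whole the median log2 difference of 766 tested genes was 0.01, and 4 genes (0.522%) had a difference of -3 or lower, against 0.715% of all tested genes.

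The genes whose values over the 4 libraries ran most like those of rspo2 were found by the Euclidean distance between log2(value + 1) profiles, each centred on its gene mean. The 5 nearest of all tested genes were cntfr, adra1d, lrfn4b, si:dkey-163f12.11 and sfrp2, at distances of 0.519 to 0.755. The gene cntfr encodes the receptor for ciliary neurotrophic factor, and read 86 and 9 in Regenerating, against 818 and 1129 in Non-Regenerating. The gene adra1d, for an alpha-1D adrenergic receptor, read 55 and 7 in Regenerating, against 359 and 642 in Non-Regenerating. The gene sfrp2, which encodes a secreted Wnt-binding protein, read 6 and 0 in Regenerating, against 46 and 42 in Non-Regenerating. In each of the 5 the Regenerating libraries were the lower pair and Regenerating replicate 2 was the lowest, as for rspo2. This shared order follows from how the 5 were picked. The genes lrfn4b, si:dkey-163f12.11 and sfrp2 also passed the filter on low values only through Non-Regenerating, and so had to be lower in Regenerating. With 4 libraries such likeness describes these samples only. The nearest profiles to rspo3 were those of gig2h, pcyt1aa, robo2, dram1 and ubtd1b (0.0661 to 0.139). Those nearest to lgr4 were ttc9c, cd2ap, b3galt2, spsb1 and gba (0.0249 to 0.0521). Those nearest to znrf3 were tbc1d14, si:ch211-199g17.2, zgc:113054, myo5b and si:ch211-239j9.1 (0.0471 to 0.0845). These 3 members varied less over the libraries than rspo2.

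**Figure D3:**
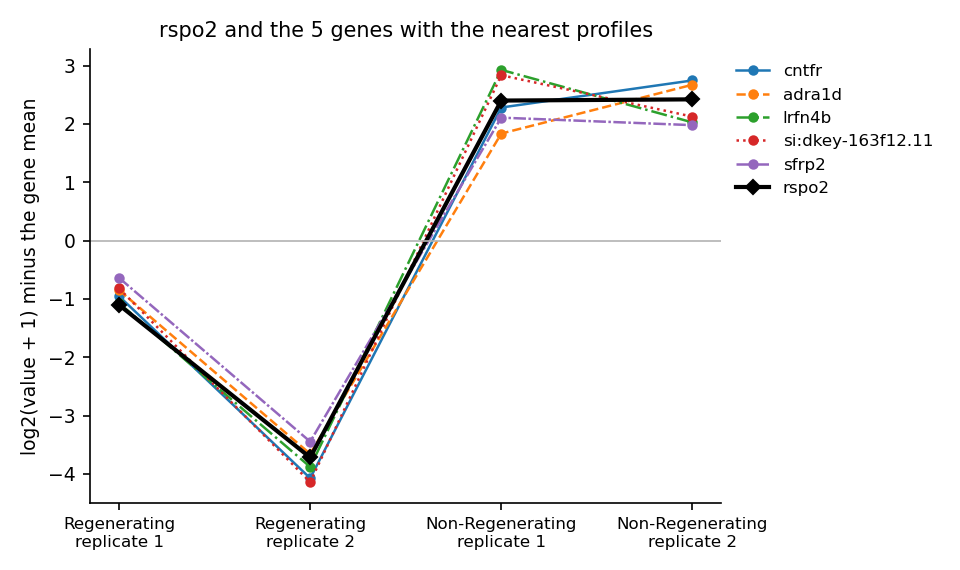
Values of rspo2 and of the 5 genes with the nearest profiles in each library, as log2(value + 1) minus the mean of the gene over 4 libraries. Lines join the values of 1 gene and stand for no order among libraries. All 6 genes were lower in both Regenerating libraries and lowest in Regenerating replicate 2, and the 5 were picked for their likeness to rspo2.

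Other genes were taken from 6 lists, 5 of Wnt pathway genes by role and 1 of vascular genes tied to R-spondins, and 79 genes in all could be tested. The lists were chosen with earlier results of these data known, so the shares below may reflect that choice and nothing is read from them. None of the 79 was called by limma with Benjamini-Hochberg adjustment. In the 5 Wnt lists, 3 of 73 tested genes were higher and 15 were lower in Regenerating at an unadjusted p under 0.05, or 24.7%, beside 12.8% of all tested genes (7.62% higher and 5.19% lower). With the vascular list there were 4 higher and 17 lower, or 26.6% of the 79. These 17 include 2 genes, wnt9a and sfrp2, that passed the filter on low values only through the Non-Regenerating libraries and so had to be lower in Regenerating. The number in either direction over the 6 lists, 21, was 14, 9, 10 and 12 genes without Regenerating replicate 1, Regenerating replicate 2, Non-Regenerating replicate 1 and Non-Regenerating replicate 2, in that order. The median log2 difference of the 79 was -0.22 (-0.13 if Non-Regenerating replicate 2 was left out), with 52 below 0, beside 0.00 over all tested genes. Groups did not overlap for 32 that were lower (40.5%) and 8 that were higher (10.1%), beside 21.5% and 21.8% of all tested genes.

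**Figure D4:**
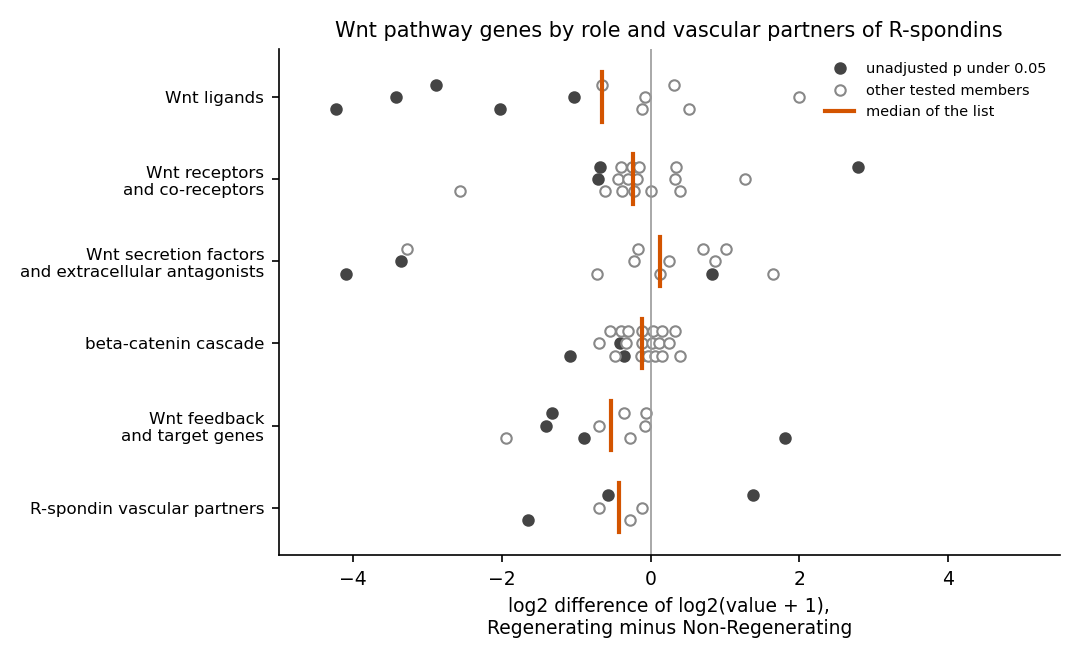
Log2 difference, Regenerating minus Non-Regenerating, of the tested genes of 5 Wnt pathway lists and of the list of vascular genes tied to R-spondins. Filled points had an unadjusted p under 0.05 and open points did not, and the bar is the median of the list. The list medians run from -0.66 for the Wnt ligands to 0.12 for the secretion factors and antagonists.

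Of 25 Wnt ligand names 17 were found and 11 could be tested. At an unadjusted p under 0.05, 5 were lower and 0 were higher (45.5%), beside 12.8% of all tested genes. The list median was -0.66 (-0.23 if Non-Regenerating replicate 2 was left out and -1.08 if replicate 1 was). The gene wnt4 read 96 and 56 in Regenerating, against 1196 and 254 in Non-Regenerating. These groups did not overlap, but the Non-Regenerating libraries were far from equal (limma log2 difference -2.89, SE 0.778, adjusted p = 0.252). Leaving out Non-Regenerating replicate 1 gave -1.78 and leaving out replicate 2 gave -4.01. The gene wnt11, a ligand of cell movement and polarity signalling, read 158 and 126 in Regenerating, against 263 and 320 in Non-Regenerating (limma log2 difference -1.03, SE 0.275, adjusted p = 0.247). The gene wnt9a read 2 and 0 in Regenerating, against 14 and 22 in Non-Regenerating, near the limit of counting, and is 1 of the 5 counted as lower. The gene wnt7aa, chosen after its values were seen, read 111 and 6 in Regenerating, against 504 and 545 in Non-Regenerating, which is the order of libraries seen for rspo2.

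Among the receptors and co-receptors 18 of 21 names could be tested, with 1 higher and 2 lower at an unadjusted p under 0.05. This was 16.7% of the list, beside 12.8% of all tested genes. The list median was -0.24 (-0.07 if Non-Regenerating replicate 1 was left out). The higher one was the Frizzled gene fzd9b, at 278 and 110 in Regenerating, against 30 and 20 in Non-Regenerating (limma log2 difference 2.79, SE 0.573, adjusted p = 0.192). Leaving out Regenerating replicate 1 gave 2.12 and leaving out replicate 2 gave 3.45. The lower ones were fzd2, at 301 and 265 in Regenerating, against 529 and 406 in Non-Regenerating, and ryk, a Wnt-binding receptor related to kinases, at 309 and 418 in Regenerating, against 642 and 514 in Non-Regenerating. The co-receptor gene lrp6, chosen after its values were seen, read 183 and 192 in Regenerating, against 203 and 171 in Non-Regenerating.

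The secretion factors and extracellular antagonists had 13 tested of 19 names. At an unadjusted p under 0.05, 1 was higher and 2 were lower (23.1%), beside 12.8% of all tested genes. The list median was 0.12 (-0.11 without Regenerating replicate 1). The antagonist gene frzb, whose protein binds Wnts outside the cell, read 1189 and 183 in Regenerating, against 4388 and 5255 in Non-Regenerating. Its Regenerating libraries were 1 high and 1 low in the same order as for rspo2 (limma log2 difference -3.36, SE 0.858, adjusted p = 0.237), and leaving out replicate 1 gave -4.71 and leaving out replicate 2 gave -2.01. The antagonist gene sfrp1a lay the other way, at 161 and 205 in Regenerating, against 117 and 90 in Non-Regenerating, and sfrp2, the other gene counted as lower, is given above.

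In the list of the beta-catenin cascade, which carries the signal inside the cell, 22 of 25 names could be tested, with 0 higher and 3 lower at an unadjusted p under 0.05. This was 13.6% of the list, near the 12.8% of all tested genes. The log2 differences of the 22 ran from -1.09 to 0.40, with a median of -0.12. The gene ctnnb2, which encodes a beta-catenin, read 3362 and 3035 in Regenerating, against 4189 and 4036 in Non-Regenerating. The gene tcf7l1a, for a DNA-binding partner of beta-catenin, read 1045 and 1039 in Regenerating, against 1399 and 1379 in Non-Regenerating, and the cofactor gene pygo2 read 233 and 118 in Regenerating, against 399 and 314 in Non-Regenerating.

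In the list of feedback and target genes, whose transcription Wnt signalling raises in many tissues, 10 of 15 names could be tested. At an unadjusted p under 0.05, 1 was higher and 3 were lower (40.0%), beside 12.8% of all tested genes. The list median was -0.53 (-0.08 if Non-Regenerating replicate 2 was left out and -0.84 if replicate 1 was). The feedback gene axin2, which is widely read as a marker of beta-catenin signalling, read 221 and 148 in Regenerating, against 477 and 487 in Non-Regenerating (limma log2 difference -1.41, SE 0.278, adjusted p = 0.189). The cyclin gene ccnd1 read 983 and 874 in Regenerating, against 1760 and 1679 in Non-Regenerating (limma log2 difference -0.89, SE 0.145, adjusted p = 0.164). For both, each Regenerating value was below each Non-Regenerating value, by more than the replicates differed. The adhesion gene cd44a went the other way, at 1168 and 1706 in Regenerating, against 291 and 556 in Non-Regenerating (limma log2 difference 1.81, SE 0.373, adjusted p = 0.192). The feedback gene nkd1, chosen after its values were seen, read 1292 and 1055 in Regenerating, against 1038 and 1939 in Non-Regenerating, with overlapping groups.

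The last list held vascular genes tied to R-spondins, all 6 of which could be tested, with 1 higher and 2 lower at an unadjusted p under 0.05. This was 3 of the 6 genes, beside 12.8% of all tested genes (7.62% higher and 5.19% lower). The growth factor gene vegfc, which acts downstream of rspo1 in zebrafish embryos, read 573 and 797 in Regenerating, against 320 and 209 in Non-Regenerating (limma log2 difference 1.38, SE 0.307, adjusted p = 0.202). The gene of its receptor, flt4, read 385 and 103 in Regenerating, against 668 and 592 in Non-Regenerating (limma log2 difference -1.65, SE 0.628, adjusted p = 0.381). Leaving out Regenerating replicate 1 gave -2.60 and leaving out replicate 2 gave -0.71. The transcription factor gene nfatc1, a target of the Wnt and calcium branch and an endocardial marker, read 1768 and 2033 in Regenerating, against 3225 and 2472 in Non-Regenerating. The syndecan gene sdc4, for a proteoglycan that binds R-spondin-3 in frog embryos, was chosen after its values were seen, and read 4055 and 4148 in Regenerating, against 4274 and 4662 in Non-Regenerating.

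Markers of several cell types moved with the groups. Of the 9 endocardial markers, genes of the inner lining of the heart, 9 were below 0 (median -2.09). An unadjusted p under 0.05 was found for 7 of the 9 (77.8%), beside 12.8% of all tested genes. Among the 7 was nrg1, which passed the filter only through Non-Regenerating. This list includes genes known from earlier results of these data to be lower. The summed values of the 9 were 15186 and 14969 in Regenerating, against 24190 and 19193 in Non-Regenerating, and gata5, a transcription factor gene in that list, read 601 and 207 in Regenerating, against 3586 and 1819 in Non-Regenerating. Of the 12 epicardial and fibroblast markers 8 were below 0 (median -0.67), with sums of 20086 and 18629 in Regenerating, against 35518 and 28420 in Non-Regenerating. Among these 12 the groups did not overlap for 7 that were lower and for 3 that were higher, namely postnb, wt1b and tbx18. Over all tested genes the groups did not overlap for 21.5% that were lower and for 21.8% that were higher. The epicardial gene wt1b read 101 and 111 in Regenerating, against 51 and 47 in Non-Regenerating. In the same list wt1a went the other way, at 23 and 13 in Regenerating, against 34 and 29 in Non-Regenerating. For tcf21 the groups overlapped, at 52 and 10 in Regenerating, against 42 and 26 in Non-Regenerating. The part of these cell types in the rspo2 difference was not tested. Single endocardial markers had log2 differences from -4.27 to -0.11, and the lowest epicardial and fibroblast marker had -2.33. The endocardial growth factor gene nrg2a read 52 and 23 in Regenerating, against 788 and 250 in Non-Regenerating.

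In other lists the libraries of a group also differed from each other. The 7 cardiomyocyte markers found summed to 27094 and 12922 in Regenerating, against 5002 and 3175 in Non-Regenerating, and 7 of 7 were higher in Regenerating replicate 1 than in replicate 2. The 9 mural cell markers, genes of smooth muscle and pericytes, summed to 13841 and 9156 in Regenerating, against 8662 and 4923 in Non-Regenerating, and 8 of 9 were higher in Regenerating replicate 1 than in replicate 2. In rspo1 and rspo2 the Regenerating libraries had the same order, and the part of these cell types in that order was not tested. The summed markers of white blood cells were 2836 and 2998 in Regenerating, against 1637 and 560 in Non-Regenerating for macrophages, 859 and 1434 in Regenerating, against 75 and 21 in Non-Regenerating for neutrophils, and 166 and 146 in Regenerating, against 70 and 40 in Non-Regenerating for lymphocytes. The sums were higher in both Regenerating libraries, but not every marker was. Groups overlapped for 4 of the 8 macrophage markers, while over all tested genes 43.2% had groups that did not overlap. The neutrophil enzyme gene mpx, too low to be tested, read 1 and 3 in Regenerating, against 9 and 4 in Non-Regenerating. The T-cell gene lck read 8 and 6 in Regenerating, against 25 and 1 in Non-Regenerating. For zap70, which acts in the same cells, there were 9 and 4 in Regenerating, against 30 and 0 in Non-Regenerating, and both genes were too low to be tested. Those of erythrocytes and thrombocytes summed to 190 and 48 in Regenerating, against 79 and 80 in Non-Regenerating. No marker found was at 0 in both Regenerating libraries, and the B-cell genes cd79b and pax5 were at 0 in both Non-Regenerating libraries, so that they passed the filter only through Regenerating. None of the 66 markers tested was called by limma with adjustment, and 34 had an unadjusted p under 0.05, beside 12.8% of all tested genes. These 34 include nrg1, cd79b and pax5, which passed the filter only through the group where they were higher, so their direction was fixed. The marker lists, too, were chosen with earlier results of these data known.

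**Figure D5:**
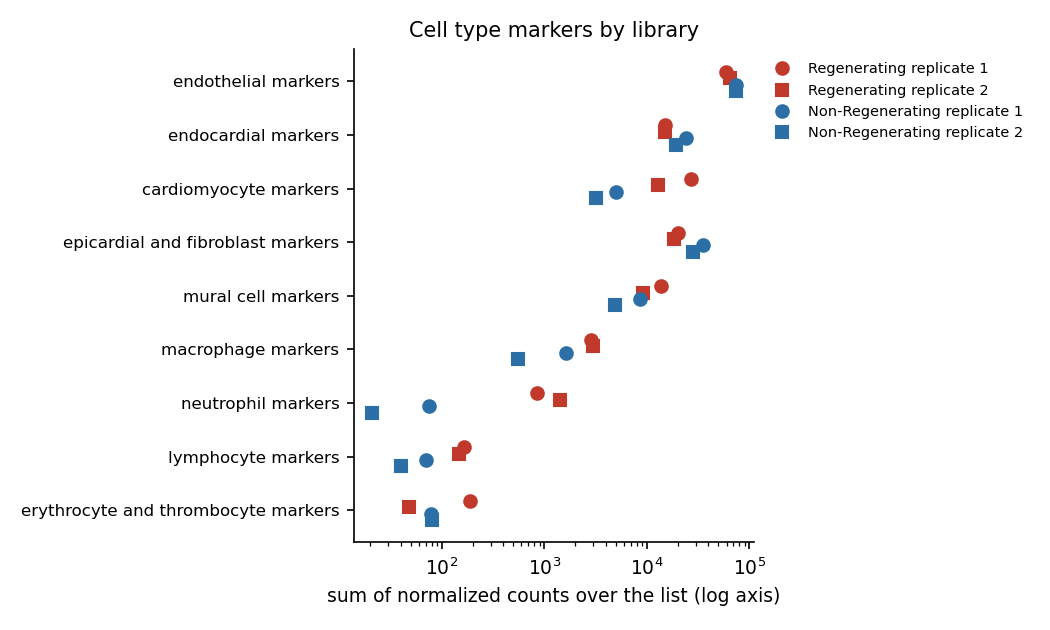
Summed normalized counts (log axis) of the marker list of each cell type in each library, with Regenerating in red above Non-Regenerating in blue and replicates 1 and 2 as circles and squares. Endothelial, endocardial and epicardial and fibroblast sums are lower in both Regenerating libraries. Cardiomyocyte, mural cell, macrophage, neutrophil and lymphocyte sums are higher. Of the 9 mural cell markers, though, only 1 (11.1%) had groups that did not overlap, beside 43.2% of all tested genes. The 27094 of Regenerating replicate 1 is the highest cardiomyocyte sum.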

How the data were processed

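Bulk RNA of 4 libraries was measured, 2 per group. The submitters' processing notes name danRer11 as the build and, in no stated order, DESeq2 1.36.0, featureCounts 2.0.4, Picard 3.1.1, STAR 2.7.11a and Trimmomatic 0.39. What the authors deposited are counts normalized per library and then rounded, recorded here as a score. Each library was taken to have been divided by 1 factor, which was assumed and not tested. Under it the steps of low values put 1 read at 0.9205, 0.9935, 0.9926 and 1.0844 (Regenerating 1 and 2, Non-Regenerating 1 and 2). The values are not raw counts, so no count model was used. Genes with at least 10 in at least 2 libraries were fitted as log2(value + 1) with limma 3.58.1 in R 4.3.3 (mean-variance trend, 2 residual and 3.08 prior degrees of freedom), with Benjamini-Hochberg adjustment over 16928 genes. Folds of low genes are understated on this scale. Members and lists were chosen with earlier results of these data known. Named were all members and the 3 tested genes of smallest unadjusted p in each Wnt and vascular list. Also named were the 5 nearest profiles of members with a mean of at least 50. Genes named from the marker lists were not picked by that rule, and were chosen with their values in view. Some named genes are given as values only. Alternatives were other pseudocounts, filters and scalings, no trend, the replicate block and leaving out each library. No value column was left unused. No sequence is printed.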

Additional observations from a re-analysis of the deposited data

How the results depend on the processing

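The number of genes called, 1 of 16928, was 0 without any 1 library and 0 without the variance trend. At an unadjusted p under 0.05, the count of 2168 genes was 1147 to 2101 with 1 library left out, and that of 21 genes of the Wnt and vascular lists was 9 to 14. With the replicate number as a block, 357 genes (2.11%) were called. Under this setting an unadjusted p under 0.05 was found for 3485 of the 16928 tested genes. In the Wnt and vascular lists it was found for 33 of the 79 tested genes. Over the Wnt, vascular and cell type marker lists together, 15 genes were called. These were 3 genes of the Wnt lists, ccnd1, cd44a and fzd9b, and 12 cell type markers. No member was called with the block or under any of the other 11 settings run. Same-numbered libraries deviated together with a correlation of 0.339 across genes. The labels name no shared source and there are only 2 pairs, so whether the numbers pair the samples cannot be told. The main fit took the libraries as unpaired. The rspo2 difference stayed between -5.05 and -4.18 under the 8 other settings with all libraries, and that of rspo1, absent under the filter of 50, between -0.65 and -0.18. The Wnt ligand median was -1.96 with a filter of 50. With 2 libraries per group, and 7 and 10 normalized counts of rspo2 and rspo1 in Regenerating replicate 2, sampling limits both ligands.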

Other observations

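A wider set of Wnt genes was taken after the values were seen, as the genes whose annotation in the deposited table holds the Gene Ontology term Wnt signaling pathway. It holds rspo1 and rspo3 among the members. Of its 109 genes 100 could be tested, and limma with adjustment called 0 of them. At an unadjusted p under 0.05, 6 were higher and 15 were lower in Regenerating (21.0%), beside 12.8% of all tested genes, and the median log2 difference was -0.08. Chosen after their values were seen, genes with a log2 difference below that of rspo2 included oit3, which read 0 and 0 in Regenerating, against 51 and 500 in Non-Regenerating, and hyal4, which read 27 and 0 in Regenerating, against 710 and 133 in Non-Regenerating. Within 200000 bases of rspo2, the immune cell gene cd83 read 442 and 359 in Regenerating, against 177 and 75 in Non-Regenerating.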
